A study of Mus musculus with 2 samples.

Results

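Nalcn, Unc79, Unc80 and Fam155a, the genes of the sodium leak channel complex, were followed across cell classes of the mouse anterior hypothalamus at 2 ages. These 4 of the 32289 features were taken by gene symbol. The complex was selected on measured values of these same libraries, with levels and age ratios already known. All values below are therefore descriptions with no test. Single-nucleus RNA was measured in tissue that contained the preoptic area, from male mice of 22 months (aged library) and wild-type male mice of 3 months (young library). Each library pooled the tissue of 5 mice, and the labels name no strain or treatment, nor a genotype for the aged mice. Nuclei were cleared of myelin with beads, stained with DAPI and sorted. With 1 library per age, an effect of age cannot be told apart from one of the pool or of the library, and cells are not replicates, so every interval below is a 95% interval for counting error only.

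The NALCN channel passes a steady sodium current at resting membrane potentials and so helps to set how close a neuron lies to its firing threshold. Nalcn encodes the pore, and Unc79 and Unc80 encode very large partner proteins that hold the channel in the membrane, as shown in worms and flies. Fam155a, also called Nalf1, encodes a membrane protein that binds the pore, and its worm counterpart is needed for delivery of the channel to the axon. In the suprachiasmatic nucleus, the hypothalamic clock, the leak current is known to contribute to the daily rhythm of firing in mice.

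All 4 members are protein-coding genes with long spans in the GENCODE M21 annotation of GRCm38, and no other annotated feature of the count table overlapped any of them. Nalcn (ENSMUSG00000000197) lies at chr14:123276634-123627144 on the minus strand and spans 350.5 kb. Unc79 (ENSMUSG00000021198) lies at chr12:102948859-103184065 on the plus strand and spans 235.2 kb. Unc80 (ENSMUSG00000055567) lies at chr1:66468367-66699148 on the plus strand and spans 230.8 kb. Fam155a (ENSMUSG00000079157) lies at chr8:9205902-9771161 on the minus strand and spans 565.3 kb, of which 1.16% is exonic.

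RefSeq promoter windows of GRCm38.p6 were matched for 3 of the 4 members and are shown because these genes encode the pore and its large partners, whose RNA is compared below. Each runs from 250 bases before the RefSeq start to 50 bases after it, 5′ to 3′ on the gene's strand, with every CG dinucleotide in capitals. The windows lie at chr14:123627095-123627394 (minus strand) for Nalcn, chr12:102948609-102948908 (plus strand) for Unc79 and chr1:66467684-66467983 (plus strand) for Unc80. The Unc80 window ends before the GENCODE start of the span given above, since RefSeq places the start of this gene further upstream.
Nalcn: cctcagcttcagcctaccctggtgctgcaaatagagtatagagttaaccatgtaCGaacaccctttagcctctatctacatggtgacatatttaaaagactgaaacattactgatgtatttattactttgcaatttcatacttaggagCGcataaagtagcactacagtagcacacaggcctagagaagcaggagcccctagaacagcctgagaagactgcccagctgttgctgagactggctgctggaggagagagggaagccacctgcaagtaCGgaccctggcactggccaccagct
Unc79: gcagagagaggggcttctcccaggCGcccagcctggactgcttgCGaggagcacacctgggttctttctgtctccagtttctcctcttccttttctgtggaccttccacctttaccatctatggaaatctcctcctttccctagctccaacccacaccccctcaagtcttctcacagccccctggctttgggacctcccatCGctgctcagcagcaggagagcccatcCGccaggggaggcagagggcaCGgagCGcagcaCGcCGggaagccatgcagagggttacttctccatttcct
Unc80: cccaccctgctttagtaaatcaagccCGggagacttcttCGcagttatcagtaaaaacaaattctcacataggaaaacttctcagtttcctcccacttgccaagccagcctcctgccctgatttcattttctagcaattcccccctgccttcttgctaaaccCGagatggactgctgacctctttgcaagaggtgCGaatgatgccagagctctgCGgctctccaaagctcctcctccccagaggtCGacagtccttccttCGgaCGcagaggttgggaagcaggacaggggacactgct
The Nalcn window held 3 CG dinucleotides and the other windows held 8 each. Of 32851 promoter windows in the RefSeq table, 76.7% held at least 3 and 48.6% at least 8, with a median of 7. CG reads the same on both strands. These counts describe the letters of the windows only.

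Barcodes with 500 or more genes and at most 5% mitochondrial UMIs (unique molecular identifiers, the counted RNA molecules) were taken as nuclei. By this rule 8597 aged and 10437 young nuclei were found, of which 368 and 489 were left out as doublets. The libraries held 79107368 aged and 87520038 young UMIs over all barcodes, and 25 nuclear barcodes were shared between them. A cluster of 516 aged and 88 young nuclei with a median of 687 UMIs, led by ribosomal protein genes and Avp, stayed unnamed and is outside all class values. Names of clusters were rebuilt from markers and mean nuclei that resemble that type. The main classes held 4999 aged and 6427 young neurons, 1881 and 2133 oligodendrocytes, and 183 and 254 oligodendrocyte precursors. Median depth in neurons was 8353 UMIs aged and 7762 young, and in oligodendrocytes 2023 and 1891. Levels are given as CPM, the UMIs of a gene per 1000000 UMIs of the class in that library.

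Neurons held RNA of the whole complex. The pore gene Nalcn stood at 427 CPM (421 to 433) in aged and 382 CPM (376 to 387) in young neurons. Unc79 stood at 381 CPM aged and 373 CPM young, and Unc80 at 408 CPM aged and 403 CPM young. Fam155a stood at 1806 CPM (1794 to 1818) in aged and 1776 CPM (1765 to 1787) in young neurons. Since longer genes can give more nuclear RNA, levels were also set per length. Per 100 kb of gene span the neuronal level was 122 CPM aged and 109 young for Nalcn, 162 and 159 for Unc79, 177 and 175 for Unc80, and 319 and 314 for Fam155a. Per kb of exon it was 29 CPM aged and 25.9 young for Nalcn, 26.7 and 26.2 for Unc79, 28.3 and 28 for Unc80, and 276 and 272 for Fam155a. Fam155a thus led on both length scales, while the order of the other members differed between the scales in the aged library only. All 4 members had a UMI in 3522 of 4999 aged neurons (70.5%) and in 4212 of 6427 young neurons (65.5%).

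Oligodendrocyte precursors, the cells that give rise to oligodendrocytes, held all members above the level of microglia by more than their intervals in both libraries, which astrocytes and oligodendrocytes did not. In precursors Nalcn stood at 374 CPM (333 to 418) aged and 382 CPM (346 to 421) young, and these intervals overlapped with each other. Unc79 was at 186 CPM aged and 214 young, and Unc80 at 226 CPM aged and 203 young. Fam155a was at 1992 CPM (1897 to 2091) aged and 1658 CPM (1582 to 1738) young. The neuronal level of Nalcn was 1.14-fold (1.02 to 1.28) that of precursors in the aged and 0.999-fold (0.905 to 1.1) in the young library, so in young nuclei the pore gene did not differ between these classes beyond counting error. Unc79 was 2.04-fold and 1.74-fold higher in neurons than in precursors, and Unc80 1.8-fold and 1.99-fold higher (aged and young).

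Microglia, which should lack a neuronal channel, give the level that free RNA in the droplets can leave. Nalcn stood at 28.7 CPM aged and 16 young in microglia, Unc79 at 23.4 and 16, Unc80 at 36.2 and 35.2, and Fam155a at 75.6 and 83.2. Single nuclei carried much of the Fam155a count in microglia, with 22 of 71 UMIs in 1 aged and 41 of 78 in 1 young nucleus. Barcodes of 1 to 100 UMIs, which hold mostly free RNA, carried Fam155a at 626 CPM aged and 809 CPM young and Nalcn at 153 and 198 CPM. In astrocytes the members stood between 31.1 and 103 CPM. There Nalcn (45.9 CPM aged, 30 to 67.2, and 31.1 young, 21.9 to 42.9) and Unc80 (47.7 and 35.3 CPM) overlapped with microglia in each library. Unc79 in astrocytes lay above microglia, at 60 CPM (41.6 to 83.9) aged and 54.7 CPM (42.2 to 69.7) young. Neuron markers summed to 1609.6 CPM in aged and 534 CPM in young astrocytes, with 7 of 7 higher in the aged library and none at 0. Their part in the astrocyte values was not tested.

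**Figure D1:**
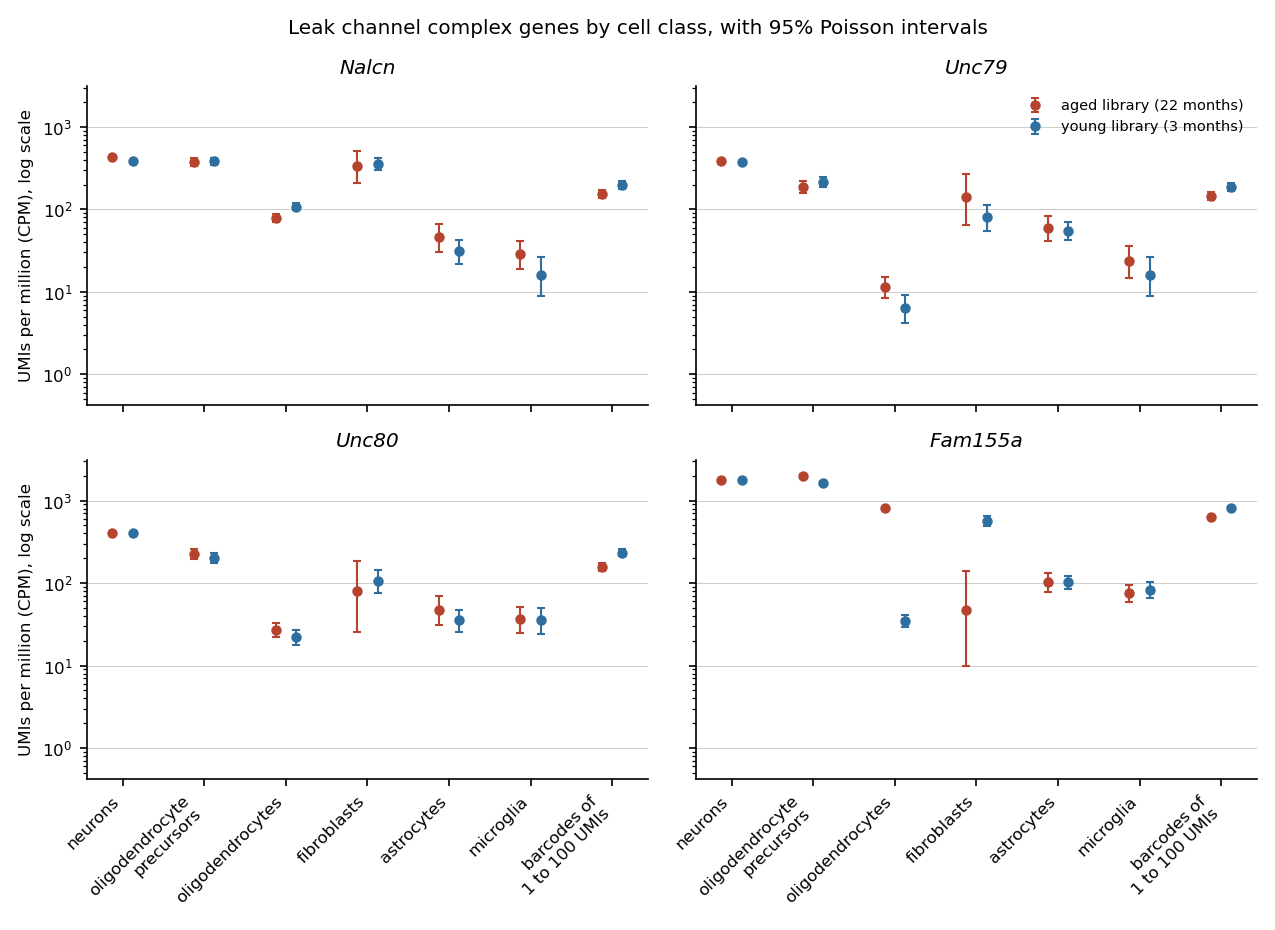
CPM (log scale) of each member in 6 cell classes and in barcodes of 1 to 100 UMIs, with aged values in red, young values in blue and 95% Poisson intervals as bars. Neurons and precursors stand high for every member, and Fam155a in oligodendrocytes stands at 812 CPM aged against 34.9 CPM young.

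Fibroblasts carried the pore gene in many nuclei and its partners in few. Nalcn stood at 333 CPM (206 to 509) in 16 aged and 354 CPM (297 to 419.7) in 95 young fibroblast nuclei, within the range of precursors. In the aged library 1 nucleus held 9 of these UMIs, and 3 nuclei held 76.2%. Without the highest nucleus of each library Nalcn stood at 276 CPM (142 to 482) aged and 333 CPM (276 to 399) young. That alternative was chosen after seeing the data. A fibroblast cluster of 32 young nuclei, at a median of 5631.5 UMIs, held 0 aged nuclei, so the makeup of the class differed between libraries. A Nalcn UMI was found in 8 of 16 aged nuclei (50%, interval 24.7 to 75.3) and 57 of 95 young nuclei (60%, interval 49.4 to 69.9), at median depths of 2570 and 2644 UMIs. In microglia the share was 5.1% aged and 2.31% young, at 2137.5 and 1806 UMIs. Thinned to 1000 UMIs per nucleus, 25.8% (17.3 to 35.9) of young fibroblasts and 0.864% of young microglia held Nalcn. Unc79 and Unc80 each had a UMI in 8 of 95 young fibroblasts (8.42%), and Fam155a in 10 (10.5%). Of the young fibroblast nuclei, 49 held Nalcn and no other member. Fam155a reached 567 CPM in young fibroblasts, but 68 of its 213 UMIs came from 1 nucleus and 97.7% from 6 nuclei. Without that nucleus it stood at 413 CPM (349 to 486), an alternative chosen after seeing the data. Neuron markers summed to 3012 CPM in aged and 4074 CPM in young fibroblasts, with none at 0, and their part was not tested.

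Vascular cells and border macrophages were too few for a firm level. In 28 aged and 38 young mural cells Nalcn stood at 71.3 CPM aged and 358 young, but 26 of its 41 young UMIs came from 1 nucleus, as did most of the 149 young UMIs of Fam155a (409.8 CPM aged, 1302 young). In 23 aged and 24 young endothelial cells the members stood between 74.7 and 187 CPM, from 4 to 10 UMIs each. In 15 aged and 24 young border macrophages no member had more than 3 UMIs, and Fam155a had 0 in both libraries, which allows up to 114 CPM aged and 87.6 CPM young by the upper interval bound.

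Among neuron types the partners of the pore varied in different ways. Over 24 sub-clusters with 20 or more nuclei in each library, the mean level of Fam155a differed 15.1-fold between the highest and the lowest, against 2.14-fold for Nalcn, 2.6-fold for Unc79 and 2.16-fold for Unc80. The orders recurred between libraries, with Spearman's rho of 0.94 for Nalcn, 0.93 for Unc79, 0.75 for Unc80 and 0.97 for Fam155a over the 24 sub-clusters. The sub-clusters were formed without the members among the clustering genes.

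Fam155a was lowest in 3 of the 4 striatal-type groups, which carry dopamine receptor genes. It stood at 237 CPM aged and 265 young in N3 (Pdyn, Prkch, Gm10754), at 579.9 and 545 in N2 (Adora2a, Drd2, Penk) and at 585 and 591 in N5 (A830036E02Rik, Arhgap29, Krt12). The next group up by mean level, N15 (Gm40663, Gm13974, 6530403H02Rik), stood at 1441 CPM aged and 1330.3 young, so a gap separated the 3 from the other groups. The fourth striatal-type group, N6 (Folh1, Gm12068, Prkcq), stood in the middle, at 1953 CPM aged and 1885 young. Its name is the weakest of the 4. The markers behind it stood on average at 0.6 of their highest level over neuron sub-clusters, against 0.76 to 0.97 in N2, N3 and N5. None of them was among its leading genes. The highest levels were in N25 (Kcnmb2, Pvalb, Hmcn1) at 4532 CPM aged and 3072 young, from 22 and 34 nuclei, and in the thalamic-type N16 (Synpo2, Plekhg1, Tcf7l2) at 3923 and 3580.3. Suprachiasmatic-type neurons, N19 (Prr5l, Vipr2, Rgs16), came next by mean level, at 2999 CPM aged and 2512 young, though N24, N10 and N4 stood above them in the young library.

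Unc79 was high in all 4 striatal-type groups. It was highest in N6, the group with the weakest striatal-type name, at 606 CPM aged and 612 young. N2, N3 and N5 came next, at 506, 489 and 493 CPM aged and 503, 527 and 474 CPM young. Unc79 was lowest in N20 (Egfr, Kit, Igfbp4), at 236 CPM aged and 233 young. Unc80 was lowest by mean level in N3 and N2, at 299 CPM aged and 300.2 young in N3 and 318 and 302 in N2. It was highest in N21 (Ebf2, Ebf3, 4930438E09Rik), at 675 CPM aged and 618 young, and next in N16, at 627 and 522. In N3 the complex therefore combined high Unc79 with the lowest mean Unc80 and Fam155a of the 24 groups.

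The pore gene varied as little as Unc80. Nalcn was highest in the suprachiasmatic-type N19 in both libraries, at 601 CPM aged and 651 young. The next group by mean level was N7 (Gal, Tac2, Esr1), at 513 and 461. In the young library N1 (Zfpm2, Gm29683, Nr2f2) stood above N7, at 465 CPM. Nalcn was lowest in N25, at 282 CPM aged and 301 young, where Fam155a was highest by mean level. N5 at 328 and 307 CPM, the cholinergic N23 (Slc5a7, Chat, Prima1) at 334 and 309.8 and N2 at 341 and 310.1 were its neighbours, and these did not differ beyond counting error. Vasopressin and oxytocin neurons, N26 (Avp, Oxt, Sim1), had 13 aged and 16 young nuclei and are outside the order, as is the cortical-type N22 (Slc17a7, Pdzrn3, Cck) with 9 aged and 126 young. In N26 Nalcn stood at 385 CPM (290.3 to 502) aged and 343 CPM (261 to 443) young, and Fam155a at 1205 CPM aged and 1123 young.

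**Figure D2:**
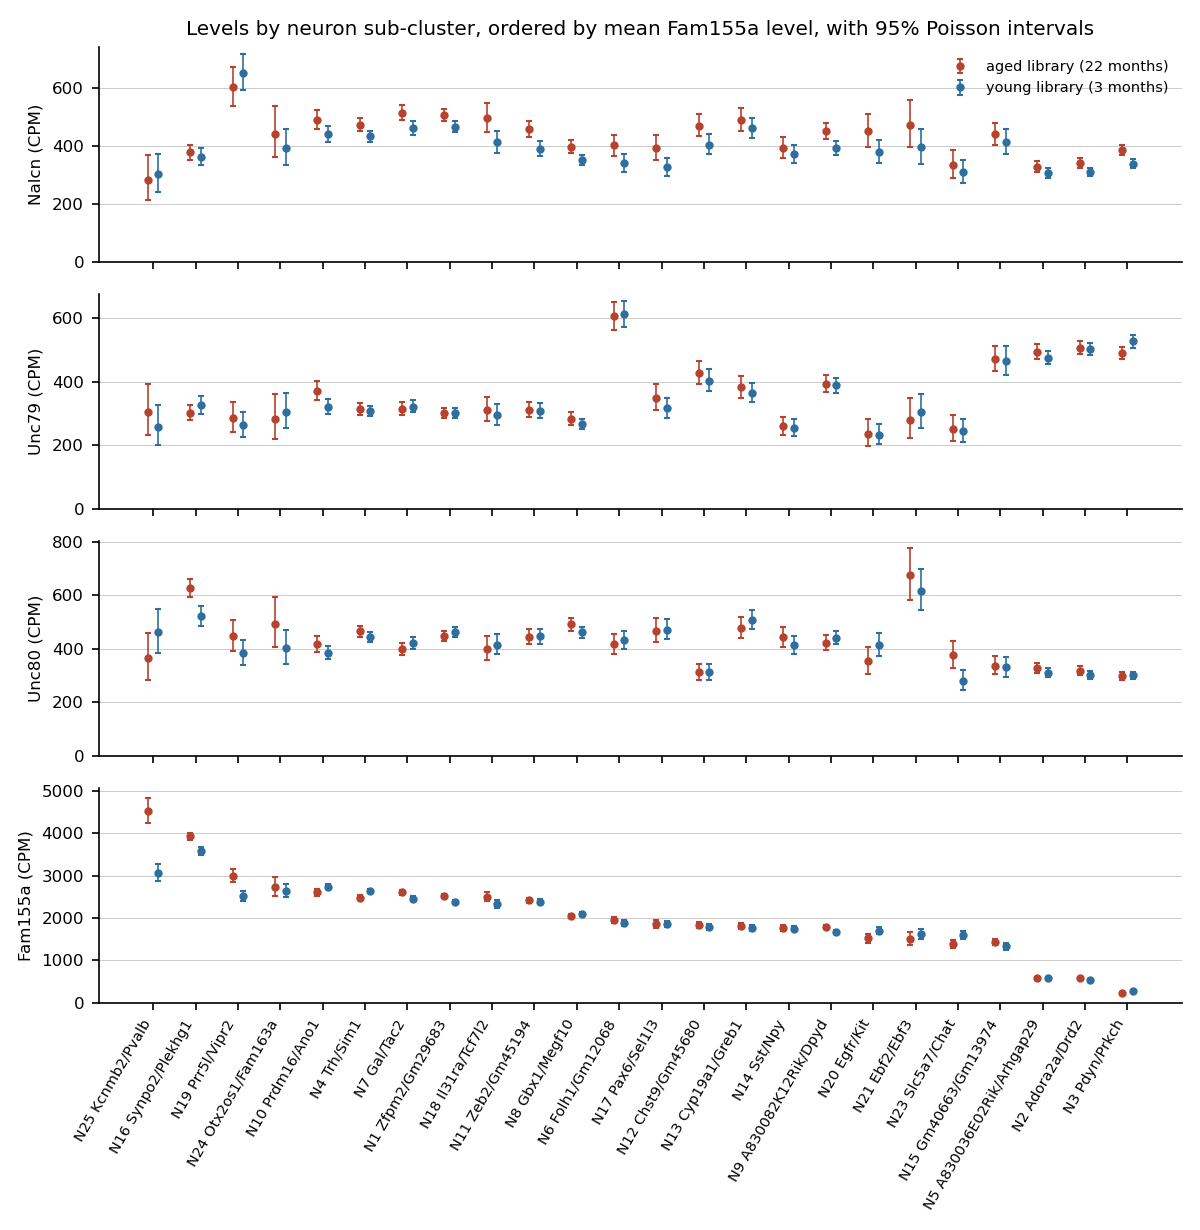
CPM of each member (linear scale from 0) in 24 neuron sub-clusters, ordered by mean Fam155a level, aged in red and young in blue with 95% Poisson intervals. Fam155a descends to the striatal-type N5, N2 and N3, at 237 to 591 CPM, where Unc79 stands at 474 to 527 CPM.

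Across the 24 sub-clusters Pearson's r of log2 levels was -0.52 aged and -0.62 young between Unc79 and Fam155a, and 0.55 and 0.6 between Unc80 and Fam155a. It was -0.49 and -0.36 between Unc79 and Unc80, and 0.3 and 0.41 between Nalcn and Fam155a. The points of a library share its depth and free RNA, and these values are descriptions. Among the points are the striatal-type N2, N3 and N5, which stand apart in Fam155a. By mean level they held Fam155a at 251 to 588 CPM and Unc79 at 484 to 508 CPM. No r was computed without them. Sub-clusters were split by transmitter, by whether Gad1, Gad2 and Slc32a1 or Slc17a6, Slc17a7 and Slc17a8 had the higher summed level. GABAergic sub-clusters held Fam155a at 1603 CPM aged and 1566 young and glutamatergic ones at 2843 and 2731. Unc80 was also higher in glutamatergic sub-clusters (511 CPM aged, 474 young) than in GABAergic ones (388 in each library). Unc79 was lower in glutamatergic sub-clusters, at 307 CPM aged and 310.4 young against 395 and 387. These are pools of UMIs in which large sub-clusters weigh most, and the GABAergic pool includes the striatal-type N2, N3 and N5 and the cholinergic N23. The glutamatergic pool includes N26 and N22, which are outside the order, and N22 had 9 aged and 126 young nuclei. It also includes N24, which held Gad2 at 275.4 CPM beside Slc17a6 at 335.7 CPM. The ranges of mean levels among the 24 overlapped. For Fam155a they were 251 (N3) to 3802 CPM (N25) in GABAergic and 1567 (N21) to 3752 CPM (N16) in glutamatergic ones. For Unc80 they were 299.5 (N3) to 494 CPM (N13) and 408 (N18) to 646 CPM (N21). For Unc79 they were 234 (N20) to 609 CPM (N6) and 292 (N21) to 314 CPM (N16).

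Between the ages, neurons differed little in these genes. The aged over young ratio was 1.12-fold (1.1 to 1.14) for Nalcn, 1.02-fold (0.999 to 1.04) for Unc79, 1.01-fold (0.993 to 1.03) for Unc80 and 1.02-fold (1.01 to 1.03) for Fam155a. The sign for Fam155a turned to a log2 ratio of -0.01 when nuclei were thinned to 1000 UMIs. A call was made for a level at least 25% higher or 20% lower in the aged library. By it 0 of 4 members passed in either direction, while 10.7% of 18021 features with 50 or more UMIs passed as higher and 13.7% as lower. Of these features, 25.6% had a higher ratio than Nalcn. Each member had more than 50 UMIs in neurons, in oligodendrocytes and in precursors, so none was left out.

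The small excess of Nalcn recurred in many neuron types. In 14 of 21 sub-clusters with 50 or more nuclei in each library its interval lay above 1, and in 0 below 1, with folds from 0.923 in N19 to 1.2 in N17 (Pax6, Sel1l3, Sox6) and a median of 1.11. As many sub-clusters with intervals above 1 were found for 0.66% of 18021 features, a share that depends on level, since abundant features have narrow intervals. In N3 Nalcn was 386 CPM aged and 337 young (1.14-fold). In the suprachiasmatic-type N19, where its level was highest, the ratio was 0.923-fold and its interval held 1. Unc79 intervals lay above 1 in 1 sub-cluster and below it in 1, and those of Unc80 above it in 1 and below it in 0. For Fam155a they lay above 1 in 8 and below 1 in 4, from 0.893-fold in N20 to 1.19-fold in N19. Of the 18021 features, 45.2% had at least as many intervals above 1 as Unc79 or Unc80, and 3.24% at least as many as Fam155a. These shares cover intervals above 1 only and depend on level as well. No member passed as higher or lower in any of the 21 sub-clusters, but no share of all features was taken for these calls. Folds of Unc79 ran from 0.919 to 1.16 and those of Unc80 from 0.851 to 1.2.

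**Figure D3:**
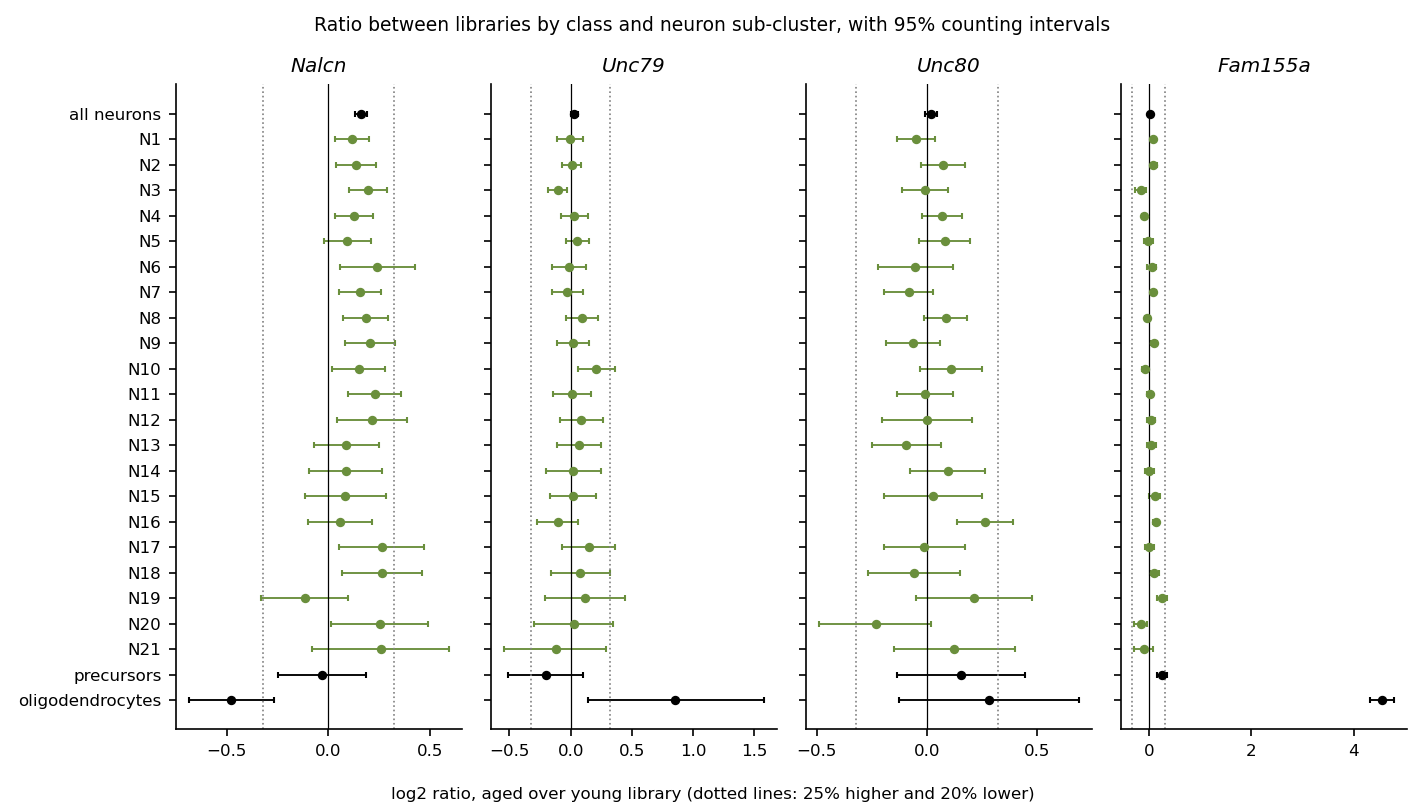
Log2 ratio of aged over young level for each member in all neurons, 21 neuron sub-clusters, precursors and oligodendrocytes, with 95% counting intervals and dotted lines at 25% higher and 20% lower, where the horizontal scale differs between panels. Neuronal ratios stay within the dotted lines, while Fam155a in oligodendrocytes lies at 4.54.

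Oligodendrocytes, the myelin-forming cells, differed most. Fam155a stood at 812 CPM (784 to 839.9) in aged and 34.9 CPM (29.6 to 40.9) in young oligodendrocytes, from 3318 and 153 UMIs, a ratio of 23.3 (19.8 to 27.5). The young level was 0.419-fold (0.317 to 0.558) that of young microglia and is read as background, while the aged level was 10.7-fold (8.49 to 13.8) that of aged microglia. Without the microglial nucleus that held most Fam155a in each library, an alternative chosen after seeing the data, these ratios were 0.874 (0.607 to 1.29) and 15.4 (11.6 to 20.9). Fam155a ranked 2 of 10931 features by its ratio. The complex was picked with this ratio known, so the rank is a description. In this class 2 of 4 members passed as higher and 1 as lower, while 22.6% of features passed as higher and 8.3% as lower. The median log2 ratio of all features was 0.10 here. Relative to that median, the log2 ratio was 4.44 for Fam155a, -0.58 for Nalcn, 0.75 for Unc79 and 0.18 for Unc80.

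The aged Fam155a signal was spread over many nuclei. A Fam155a UMI was found in 758 of 1881 aged oligodendrocytes (40.3%, 38.1 to 42.6) and in 118 of 2133 young ones (5.53%, 4.6 to 6.59). In microglia the shares were 6.07% aged and 5.66% young, at median depths near those of oligodendrocytes. After thinning to 1000 UMIs per nucleus, which left out 23 aged and 54 young oligodendrocytes, the shares were 32.2% (30.1 to 34.4) and 3.17% (2.46 to 4.02). Of the aged nuclei, 423 held 3 or more Fam155a UMIs. Among young nuclei 1 held 3 to 4, 1 held 5 to 9 and 1 held 10 or more. The aged nucleus with most held 36 UMIs, 1.08% of the total, and the young one held 19, 12.4% of the total. Of the aged nuclei 1123 had no Fam155a UMI, at a median depth of 2017 UMIs.

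**Figure D4:**
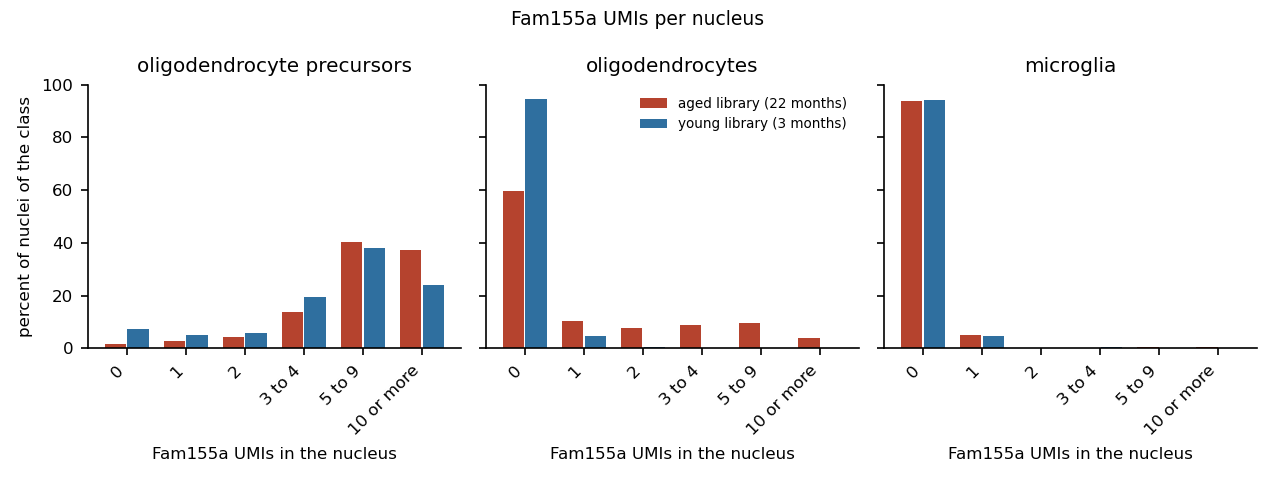
Percent of nuclei (vertical axis from 0) by the number of Fam155a UMIs in the nucleus, for precursors, oligodendrocytes and microglia, aged in red and young in blue. Aged oligodendrocytes spread over all bins with 59.7% at 0, young oligodendrocytes stand at 94.5% at 0, and precursors of both libraries peak at 5 to 9 UMIs.

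Fam155a was higher in the aged library in both oligodendrocyte clusters. In the larger cluster Fam155a stood at 989 CPM (955 to 1024) aged and 42.9 CPM (36.1 to 50.6) young. In the smaller it stood at 176 CPM (149.6 to 206) aged and 11.6 CPM (6.17 to 19.8) young, from 157 and 13 UMIs. The aged level of the smaller cluster rested on few nuclei, since 22 of its 333 held 3 or more UMIs and 75.8% of the count, while 83.8% held 0. In each of 7 finer oligodendrocyte groups, whose makeup differed between the libraries, the aged level, from 176 to 1371 CPM, lay above the young level, from 14.3 to 42.3 CPM.

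**Figure D5:**
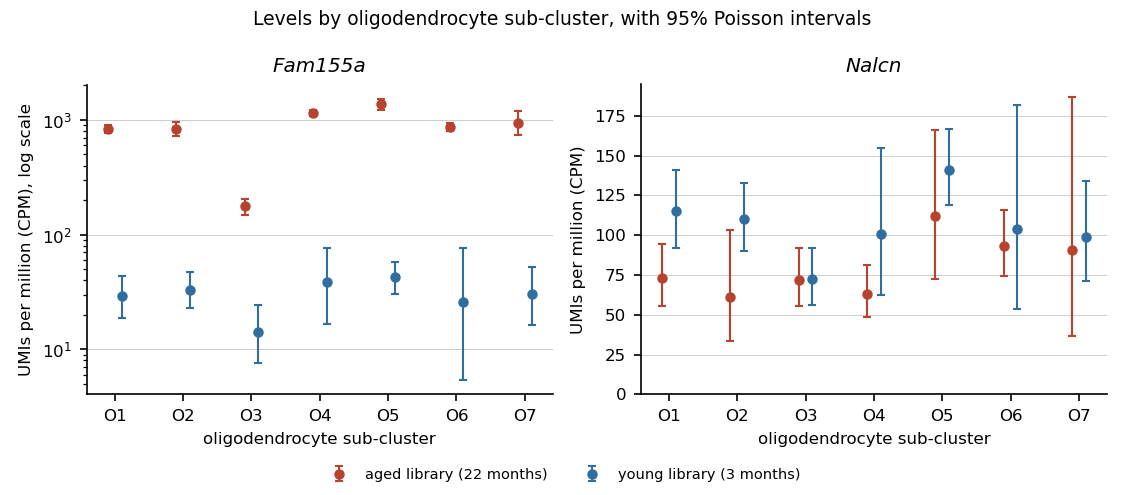
CPM of Fam155a (left, log scale) and Nalcn (right, linear from 0) in 7 oligodendrocyte sub-clusters, aged in red and young in blue with 95% Poisson intervals. The Fam155a intervals of the libraries do not overlap in any sub-cluster, and O3 has the lowest aged level at 176 CPM, while the Nalcn intervals overlap in each of the 7.

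Neuronal RNA in these nuclei was measured beside this. Neuron markers summed to 876 CPM in aged and 708 CPM in young oligodendrocytes, 7 of 7 were higher in the aged library and none was at 0. Within the aged library they summed to 837 CPM in nuclei with 0 Fam155a UMIs, 912 CPM with 1 or 2 and 946 CPM with 3 or more. Snap25, a synaptic protein gene, stood at 162, 154 and 151 CPM in the same groups. For each 100 Snap25 UMIs, aged oligodendrocytes held 513 Fam155a UMIs, aged neurons 215, aged barcodes of 1 to 100 UMIs 103 and aged microglia 50.4. In young oligodendrocytes the figure was 31.5. In nuclei with no UMI of 5 neuron markers the log2 ratio of Fam155a was 4.61, against 4.54 in all oligodendrocytes, an alternative chosen after seeing the data. Precursor markers summed to 497 CPM in aged and 511 CPM in young oligodendrocytes, with 4 of 7 higher in the aged library and none at 0.

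Genes that flank Fam155a did not share the size of its ratio. In oligodendrocytes Arglu1 was 1.14-fold (1.06 to 1.24), Efnb2 1.18-fold (0.698 to 2) and Lig4 0.56-fold (0.254 to 1.17) in aged over young.

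The pore gene went the other way in oligodendrocytes. Nalcn stood at 77.8 CPM (69.5 to 86.8) aged and 108 CPM (98.8 to 118) young, from 318 and 475 UMIs, a ratio of 0.718 (0.621 to 0.83). Both levels lay above microglia, 2.71-fold (1.83 to 4.17) in the aged and 6.77-fold (4.06 to 12.2) in the young library. A Nalcn UMI was found in 13.1% of aged and 17.3% of young oligodendrocytes. The ratio was 0.667 (0.568 to 0.782) in the larger cluster and 0.944 (0.664 to 1.34) in the smaller one, where the interval held 1. In aged oligodendrocytes Nalcn stood at 74.6 CPM in nuclei with 0 Fam155a UMIs, 75.5 CPM with 1 or 2 and 87.1 CPM with 3 or more.

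The other partners were at background in oligodendrocytes. Unc79 stood at 11.5 CPM aged and 6.38 young, from 47 and 28 UMIs, which was 0.491-fold and 0.399-fold the level of microglia. Its ratio of 1.8 (1.1 to 2.99) therefore compares background levels. Unc80 stood at 26.9 CPM aged and 22.1 young (1.22-fold, 0.918 to 1.62), at 0.744-fold (0.502 to 1.13) and 0.628-fold (0.419 to 0.963) of microglia. Of 1881 aged and 2133 young oligodendrocytes 0 held UMIs of all 4 members, at a lower depth than neurons. In the aged library 615 oligodendrocytes held Fam155a and no other member, and in the young library 94 did.

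From precursors to oligodendrocytes the measured level of every member was lower in both libraries. The oligodendrocyte levels of Unc79, Unc80 and, in the young library, Fam155a were at background. Their folds divide by that background, so their sizes depend on it and are not read as steps between the classes. In the young library the precursor level was 3.53-fold (3.08 to 4.03) that of oligodendrocytes for Nalcn, 33.6-fold for Unc79, 9.19-fold for Unc80 and 47.5-fold (40.3 to 56.5) for Fam155a. In the aged library it was 4.8-fold (4.09 to 5.64) for Nalcn, 16.2-fold for Unc79, 8.42-fold for Unc80 and 2.45-fold (2.31 to 2.6) for Fam155a. The measured fold for Fam155a was thus far smaller in the aged library, the only one where its oligodendrocyte level lay above background.

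In precursors themselves Fam155a was 1.2-fold (1.12 to 1.29) in aged over young, Nalcn 0.979-fold (0.841 to 1.14), Unc79 0.869-fold (0.703 to 1.07) and Unc80 1.11-fold (0.911 to 1.36). In this class 0 of 4 members passed in either direction, while 20.9% of 6527 features passed as higher and 17.4% as lower. These calls depended on the setting. With free RNA subtracted Unc80 and Fam155a passed as higher, at log2 ratios of 0.45 and 0.48. After thinning Unc79 passed as lower, at -0.46, from only 32 aged and 61 young UMIs. No share of all features was taken under these settings, so these calls have no background beside them. The subtraction took 34.2% of UMIs as free RNA in aged and 24.4% in young precursors. These estimates are loose, since single markers gave 17.5% to 240.4% aged and 24% to 179.7% young. Markers of committed precursors, cells on the way to oligodendrocytes, summed to 1746 CPM in aged and 3265 CPM in young precursors, 0 of 7 were higher in the aged library and none was at 0. Oligodendrocyte markers summed to 485 CPM aged and 1563 CPM young, again with 0 of 7 higher in the aged library and none at 0. Astrocyte markers moved the other way, at 756 CPM aged and 561 CPM young, with 7 of 7 higher in the aged library and none at 0, and their part was not tested. At a finer clustering 2 aged and 21 young nuclei separated as committed precursors. Fam155a stood at 167 CPM in these young nuclei, from 23 UMIs, and Nalcn at 341 CPM, from 47 UMIs. In the precursors that remained, Fam155a stood at 1998 CPM aged and 1880.4 young, a ratio of 1.06 (0.992 to 1.14).

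Other genes of resting conductance and excitability were set beside the complex in neurons. Counts below are over genes with 50 or more UMIs, against the shares of all features given above for each class. Of 11 genes known to regulate or resemble members, 1 passed as higher and 0 as lower. It was Calm3 (1.26-fold), a calmodulin gene, while the muscarinic receptor gene Chrm3 was 0.914-fold and the GABA-B receptor gene Gabbr2 0.929-fold. Tmem28, the paralog Fam155b by its RefSeq synonym, stood at only 7.22 CPM aged and 7.28 CPM young. Of 9 potassium leak channel genes, 0 passed in either direction. Among them Kcnk1 was 1.07-fold, and Kcnk2 and Kcnk13 were 0.851-fold and 0.854-fold.

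Of 4 HCN pacemaker channel genes 0 passed, and Hcn2 was 0.811-fold. Of 9 voltage-gated sodium channel pore genes 1 passed as higher, Scn10a, at 0.859 CPM aged and 0.681 young with an interval that held 1. Scn1a and Scn2a were each 1.1-fold, and Scn8a was 0.904-fold. Of 4 sodium channel beta subunit genes 0 passed, with Scn4b at 1.2-fold and Scn2b at 1.14-fold. Of 9 voltage-gated calcium channel pore genes 3 passed as lower and 0 as higher. Cacna1f stood at only 1.2 CPM aged and 1.56 young, with an interval that held 1. The others were Cacna1a, the P/Q-type pore, at 601 CPM aged and 818 CPM young (0.735-fold), and Cacna1i, a T-type pore, at 34.9 and 46.4 CPM (0.752-fold), whereas Cacna1b was 1.06-fold and Cacna1e 1.03-fold. The median log2 ratio was 0.03 over the 4 members and 0.02 over all features.

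In oligodendrocytes Calm2 and Calm3 were among the regulators that passed as higher, at 1.29-fold and 1.31-fold, and 0 of 7 regulators passed as lower. Of 4 sodium channel pore genes 1 passed as higher, Scn2a (1.42-fold), of 4 beta subunit genes 2 passed as higher and 1 as lower, and of 6 calcium channel genes 1 passed each way. The intervals of Scn4b (1.29-fold), Scn3b (0.703-fold) and Cacna1d (0.746-fold) among these held 1. No gene passed among 3 potassium leak channel and 2 HCN genes. Cacna1a was 1.78-fold (99.3 CPM aged, 55.9 young) in oligodendrocytes, against 0.735-fold in neurons. In precursors 5 of 8 regulators passed as higher and 1 as lower. There Calm2 and Calm3 were 1.49-fold and 1.48-fold, and Fyn, a kinase gene also listed as a committed precursor marker, was 0.453-fold. The interval of Src (1.32-fold), another of the 5, held 1. Of the other lists in precursors, 1 of 5 potassium leak channel, 1 of 4 sodium channel pore and 1 of 6 sodium pump genes passed as higher. The 1 beta subunit gene passed as higher too, and of 4 calcium channel genes 0 passed as higher and 1 as lower.

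Over 32 cell groups of 50 or more nuclei, with both libraries pooled, the features whose log2(CPM + 5) levels were most like those of each member were ranked by Pearson's r among 7811 features. Nalcn was most like Rundc3b (r = 0.948), Maco1, Ccser1, Cyfip2 and A230057D06Rik. The features most like Unc79 included Samd12 (r = 0.978), Gm26691, Ptprn2 and Lrrc7, and Unc80 was most like Shank2 (r = 0.973), Cdr1os, Srrm3, Scn2a and Clvs2. Fam155a was most like Cadps (r = 0.91), Frmd3, Cers4, Ephb2 and Shank1. Among the members themselves r was 0.922 between Unc79 and Unc80 and 0.685 between Unc79 and Fam155a. The order of the pairs differed between the libraries, and r between Unc79 and Fam155a was 0.6 among aged and 0.825 among young groups. The groups share library depth and the split of neurons from glia, so high r is common, and Unc80 ranked 41 of 7811 by its likeness to Nalcn.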

How the data were processed

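The authors deposited, per library, a matrix of counts of UMIs per gene and barcode without normalisation. Per the file headers these came from Cell Ranger 4, which the submitters' processing notes name too. For genome build, introns and strand, the counting settings were not given in the sources used. Coordinates and lengths follow GENCODE M21 (GRCm38), matched by Ensembl identifier for 32235 of 32289 features.

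From these counts, Scrublet doublets (4.28% aged, 4.69% young) were removed per library. Nuclei of both libraries were clustered with scanpy 1.11.5 on 2000 variable genes without the members, 30 principal components, 15 neighbours and Leiden resolution 1, and clusters were named from marker lists. UMIs were summed per library and class. Levels carry exact Poisson, ratios exact conditional binomial and shares exact Clopper-Pearson 95% intervals, for counting error only. With 1 library per age no test between ages was made. The members and gene lists were chosen with earlier results of these data known.

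Genes named from a list are the 2 highest and 2 lowest neuronal ratios among those with 50 or more UMIs whose interval leaves out 1. Calm2, Scn10a, Cacna1f, Fyn, Tmem28, the flanking genes and all list genes named in oligodendrocytes or precursors fall outside that rule and were named after their values were seen. For likeness, the 5 features of highest r were named among those with a mean of 20 CPM or more over neuron sub-clusters. Some genes that these rules select are not reported here. Alternatives changed filters, doublets, scaling, depth, free RNA and clustering.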

Additional observations from a re-analysis of the deposited data

Results flagged for a closer look

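The ratio of Nalcn between the libraries had opposite signs in neurons and oligodendrocytes. The log2 ratio of aged over young was 0.16 in neurons (427 CPM aged, 382 CPM young) and -0.48 in oligodendrocytes (77.8 CPM aged, 108 CPM young), and both intervals left out 0. The difference between these classes was not tested, since there is 1 library per age. Neuron markers in oligodendrocytes summed to 876 CPM aged and 708 CPM young.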

How the results depend on the processing

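Of 44 values under alternative settings in neurons, 38 stayed within the counting interval of the reported log2 ratio. In oligodendrocytes 50 of 53 did, and in precursors 35 of 40. The log2 ratio of Fam155a in neurons, 0.02 as reported, was -0.01 with each nucleus thinned to 1000 UMIs and 0.01 under median ratio scaling, so its sign changed with the setting. With free RNA subtracted the neuronal log2 ratios were 0.23 for Nalcn, 0.08 for Unc79, 0.10 for Unc80 and 0.07 for Fam155a, and in precursors they were 0.45 for Unc80 and 0.48 for Fam155a. The estimated free RNA ranged from 22.5% to 34.2% of UMIs in aged and from 21.8% to 25.7% in young classes, and single markers gave from 6.33% to 240.4%. In oligodendrocytes this subtraction left 0 or fewer counts for Unc79 and Unc80 in both libraries and for Fam155a in the young one, so it gave no value for them. In precursors the log2 ratio of Nalcn was -0.28 and that of Fam155a 0.09 after thinning, and that of Fam155a 0.09 at Leiden resolution 2. Equal weighting of sub-clusters was not run for precursors, which form a single cluster. Among alternatives chosen after seeing the data, oligodendrocytes without UMIs of 5 neuron markers gave -0.14 for Unc80, and the smaller oligodendrocyte cluster alone gave -0.08 for Nalcn and 3.93 for Fam155a. The cause of these shifts was not tested. The share of features past the threshold in neurons was 24.4% at the threshold used and 9.42% at 1.5-fold. No paired analysis was possible because each age has 1 library. Depth limits Unc79 in oligodendrocytes, at 47 aged and 28 young UMIs.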
